A study of Mus musculus with 8 samples.

Results

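Macrophage-rich spots are the capture spots of a heart section that held the largest share of macrophage transcripts. They were taken from 4 Visium spatial transcriptome sections, a method in which a tissue slice lies on an array of barcoded spots and each spot can hold several cells of different types. In each section, spots over tissue with at least 5000 UMIs (unique molecular identifiers, each standing for 1 captured transcript) were ranked by the share of their UMIs that came from C1qa, C1qb, C1qc, Cd68 and Csf1r, and the top 10% were taken. This gave 654 macrophage-rich spots of 6542 spots in all, which were 141 of 1406 in sham, 205 of 2048 in TAC-2w, 119 of 1194 in TAC-4w and 189 of 1894 in TAC-6w. They were compared with the other spots of the same section.

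All mice were wild-type C57BL/6J males, given as 8 weeks old. Transverse aortic constriction (TAC) narrows the aortic arch with a ligature and raises the pressure against which the left ventricle works. The TAC-2w, TAC-4w and TAC-6w hearts were taken 2, 4 and 6 weeks after this surgery. The sham mouse went through the same operation, but its aorta was not tied. Each condition had 1 section, so the 4 sections served as the replicates of the comparison within sections, and differences between conditions were given as values with no test. By the labels, batch 1 holds the 2 sections of sham and TAC-2w, batch 2 that of TAC-4w and batch 3 that of TAC-6w, and both kinds of spot came from every section, so a batch could not separate them. Where 4 values follow each other below, sham comes first, then TAC-2w, then TAC-4w, and TAC-6w last. The 4 sections had 1175 spot barcodes in common, since these mark positions on the array and not cells.

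Macrophages of the healthy heart are mostly resident cells that lie between cardiomyocytes and along vessels, take up cell debris and present antigen. Under pressure overload, monocytes from the blood add to them, and they exchange signals with fibroblasts, the cells that lay down collagen. The genes of the rule encode the 3 chains of complement C1q, the lysosomal glycoprotein CD68 and the receptor for the macrophage growth factor CSF1.

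The spots were selected on the values of the 5 genes, which are therefore given as a description. On the CPM scale, on which the UMIs of all genes of a group are scaled to a common total, their sum was 776 in macrophage-rich and 180 in other spots of sham, 623 and 175 in TAC-2w, 1156 and 387 in TAC-4w, and 879 and 299 in TAC-6w. In TAC-4w the other spots thus carried more of these transcripts than those of any other section. The median macrophage-rich spot had 14 UMIs of the 5 genes in sham, 14 in TAC-2w, 32 in TAC-4w and 20 in TAC-6w, against 2, 4, 8 and 6 in the other spots. The last spot inside and the first spot outside the threshold lay close together, at 509.7 and 508.0 CPM in sham, 444.8 and 444.6 in TAC-2w, 814.1 and 813.8 in TAC-4w, and 674.2 and 673.8 in TAC-6w. The 2 kinds of spot are thus parts of a continuous range, and the threshold differed between sections.

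Depth differed in both directions between the kinds of spot. The median UMIs per macrophage-rich and other spot were 20640 and 17871 in sham, 24754 and 24525 in TAC-2w, 29404 and 27646 in TAC-4w, and 22281 and 24907 in TAC-6w. The sums that entered the test held between 2815892 and 43655495 UMIs. Macrophage-rich spots were mixed tissue, since the summed level of 12 cardiomyocyte genes in them lay between 50242 and 63870 CPM of total UMIs over the 4 sections. In spots, more cells of a type and more RNA per cell cannot be told apart.

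Macrophage-rich spots lay scattered over the sections and were next to each other more often than other spots were next to them. Of the neighbouring spots of a macrophage-rich spot, 15.5% were macrophage-rich in sham, 14.4% in TAC-2w, 17.1% in TAC-4w and 17.5% in TAC-6w (mean 16.1% ± 1.46, SD, n = 4 sections). Of the neighbouring spots of other spots, 9.59%, 9.47%, 8.999% and 8.80% were macrophage-rich. Since 10% of the spots were taken in each section, this second share falls as the first rises, and the 2 are not separate results. Still, 279 of the 654 macrophage-rich spots (42.7%) touched no other. The share at the tissue edge had no common direction. It was 2.84% of macrophage-rich spots (95% interval 0.778 to 7.10, exact Clopper-Pearson) and 11.3% of other spots in sham (9.61 to 13.2), but 16.0% (9.90 to 23.8) and 9.77% (8.06 to 11.7) in TAC-4w. In TAC-2w it was 9.27% and 7.98%, and in TAC-6w 8.99% and 7.86%.

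**Figure D1:**
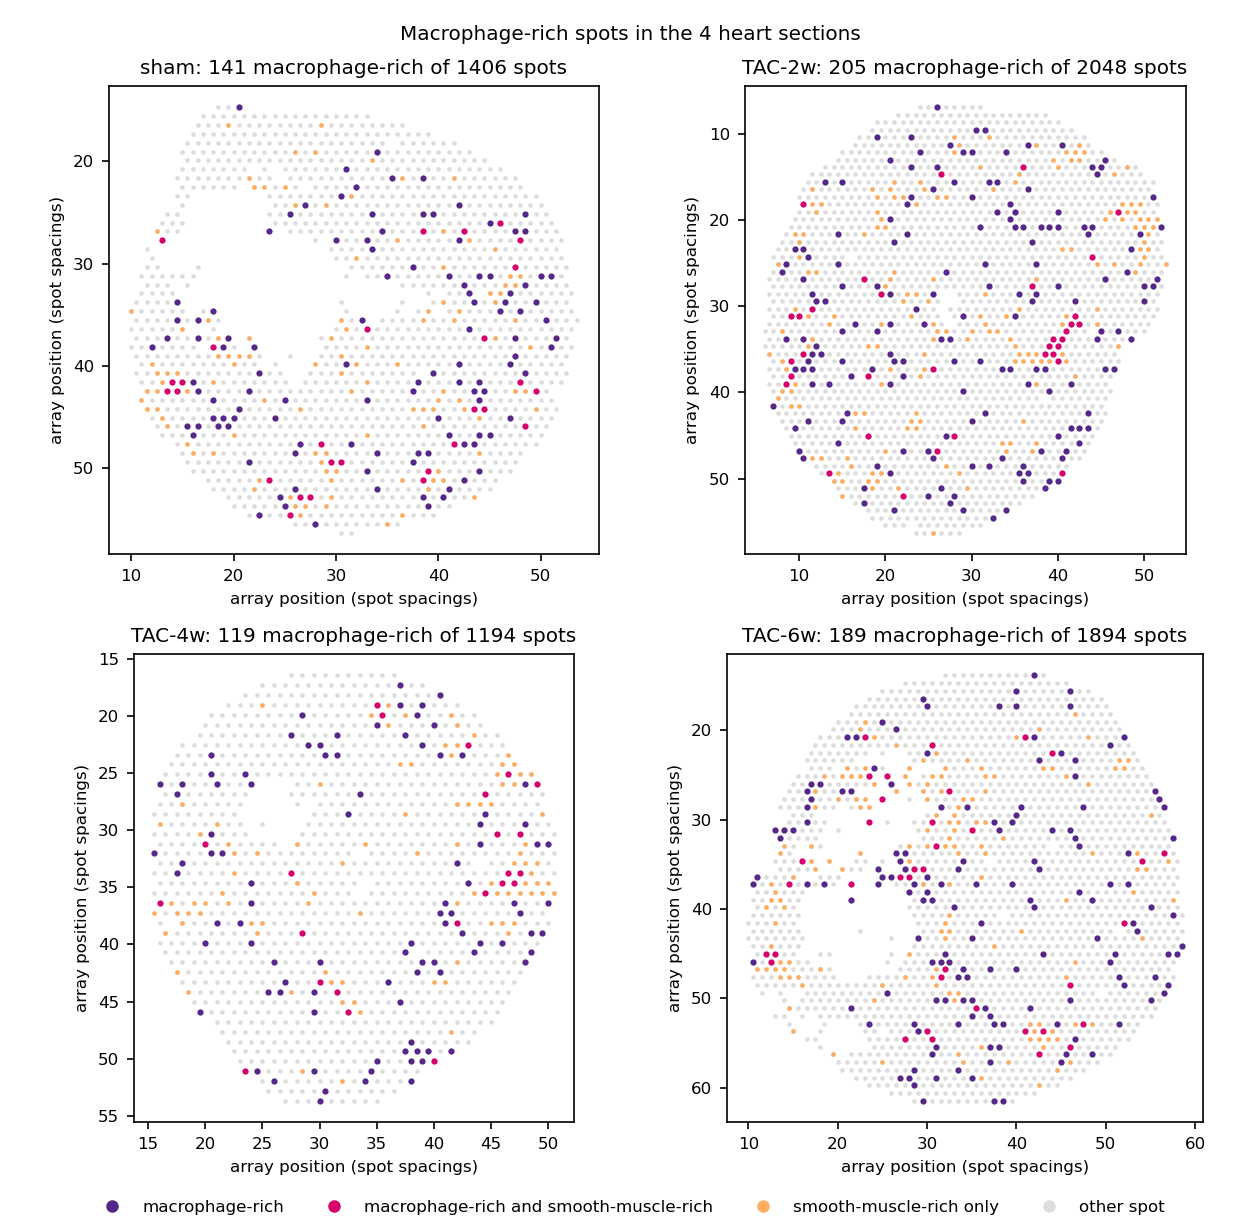
Positions of macrophage-rich spots in the 4 sections, with both axes in units of the distance between neighbouring spots; grey points are other spots, purple points macrophage-rich spots, orange points the spots in the top 10% of their section for smooth muscle genes, and pink points the spots in both sets. Macrophage-rich spots are spread over every section, and between 16.6% and 19.9% of them are also smooth-muscle-rich.

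The comparison of macrophage-rich with other spots asked which other transcripts share their place. Of 11356 genes tested, 872 (7.68%) were higher and 756 (6.66%) were lower in macrophage-rich spots (edgeR quasi-likelihood test with section as a block, adjusted p under 0.05), together 14.3% of the genes. The split depended on the scaling. TMM scaling centres the genes, whereas scaling by total UMIs alone shifted the median log2 ratio by 0.149 and gave 2177 higher and 36 lower genes. The median share of mitochondrially encoded UMIs was lower in macrophage-rich than in other spots of every section (49.5% and 52.7% in sham, 41.8% and 43.6% in TAC-2w, 40.5% and 43.2% in TAC-4w, 42.5% and 45.2% in TAC-6w). These UMIs are part of the total by which the rule divides. A log2 ratio below is that of macrophage-rich to other spots on the TMM scale unless stated, with its standard error over the fit of the 4 sections, and CPM of single genes are on that scale too.

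Macrophage genes outside the rule rose together. Of 15 other macrophage genes, 14 were higher and none lower, with a median log2 ratio of 1.17, and all 9 resident macrophage genes that passed the filter of 200 UMIs were higher (median 1.31), beside a median of -0.00 over all genes tested. Cd209f, the remaining resident gene, had too few UMIs. Lyz2, which encodes lysozyme, was at 490, 378, 683 and 596 CPM in the macrophage-rich spots, and at 171, 158, 294 and 285 CPM in the other spots. Its lowest macrophage-rich section thus lay above its highest other section (log2 ratio 1.25 ± 0.04, adjusted p = 1.9e-25). Mrc1, the mannose receptor of resident macrophages, was at 49.7, 41.1, 70.1 and 45.6 CPM against 19.5, 16.5, 26.1 and 20.5 CPM (log2 ratio 1.31 ± 0.07, adjusted p = 3.3e-18). Apoe, which carries lipid and is made by macrophages among other cells, was at 877, 715, 1121 and 888 CPM against 375, 339, 523 and 463 CPM (log2 ratio 1.08 ± 0.03, adjusted p = 4.2e-26). For neither gene did the groups overlap. These genes mark the cells that the rule selects, and their rise checks the name of the spots.

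Resident macrophage genes differed in how even their levels were over the 4 sections. Cbr2, a carbonyl reductase gene typical of resident macrophages, was at 39.5, 50.5, 43.2 and 51.4 CPM in macrophage-rich spots and at 14.9, 17.4, 15.3 and 16.3 CPM in other spots (log2 ratio 1.54 ± 0.07, adjusted p = 1.1e-19). Pf4, a chemokine gene, was at 69.1, 75.8, 71.3 and 71.2 CPM against 26.8, 31.7, 32.0 and 32.2 CPM (log2 ratio 1.22 ± 0.06). F13a1, the A chain of coagulation factor XIII, had a log2 ratio of 1.27 ± 0.06, Folr2, a folate receptor gene, 1.37 ± 0.09, and Mgl2, a lectin gene, 1.42 ± 0.13. Mgl2 was less even, at 22.2, 20.8, 9.97 and 10.9 CPM against 6.77, 7.23, 3.64 and 5.50 CPM. Trem2, a lipid-sensing receptor gene of the other macrophage list, had a log2 ratio of 1.59 ± 0.19 on 423 UMIs. Over the whole resident list, the summed level was 1.82 times that of other spots in sham, 1.79 times in TAC-2w, 1.83 times in TAC-4w and 1.59 times in TAC-6w. Selenop of this list supplied much of the sum, with 998 of 1998 UMIs in macrophage-rich spots of sham. Its own ratios were 1.51, 1.52, 1.55 and 1.34.

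**Figure D2:**
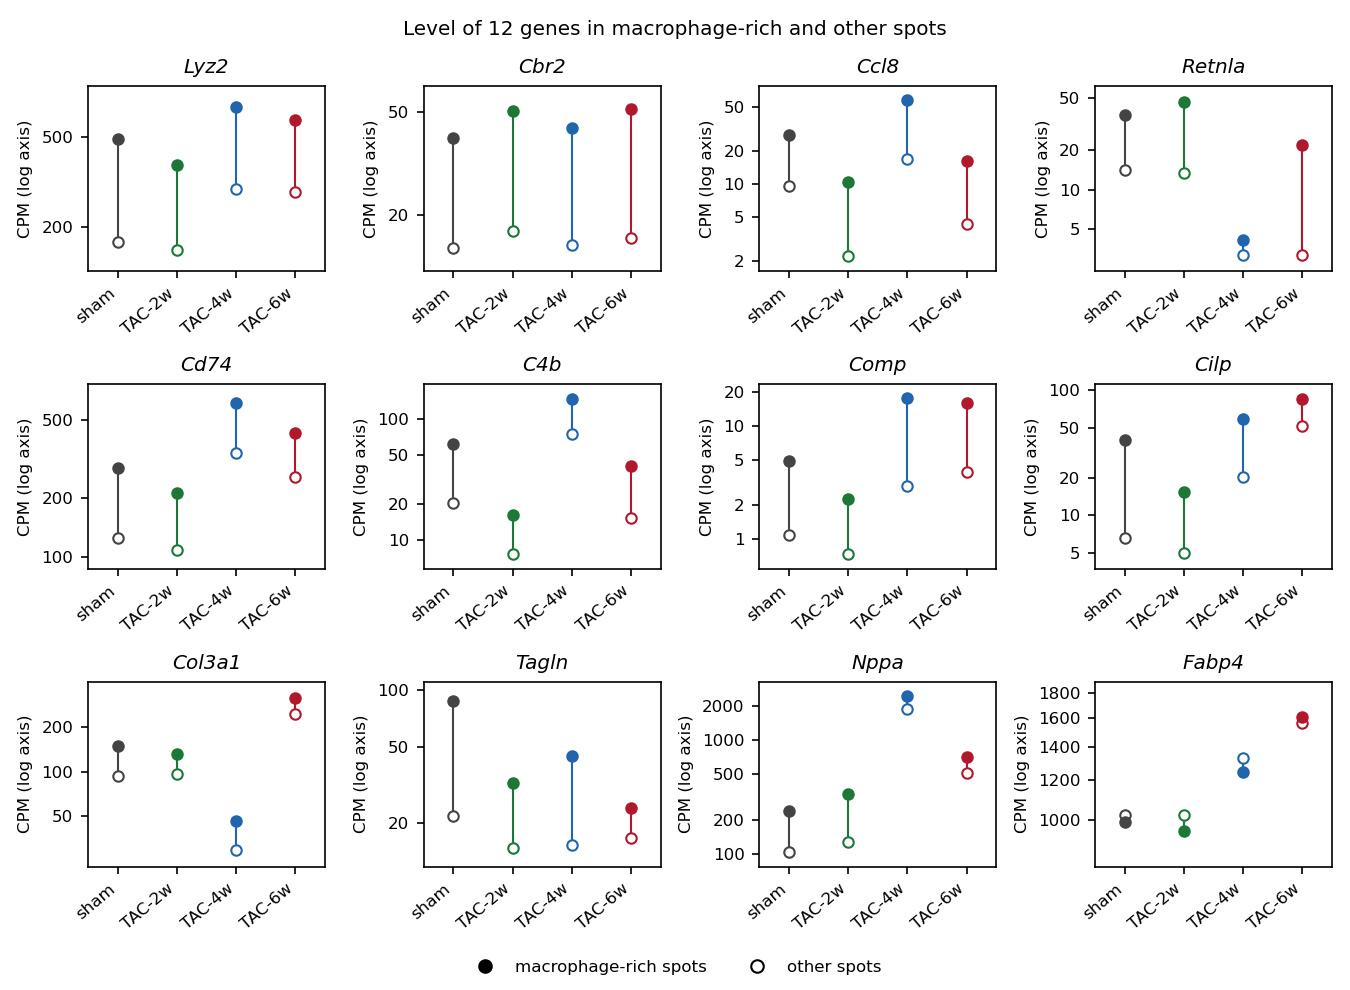
Level of 12 genes (CPM on the TMM scale, log axis) in macrophage-rich spots (filled) and other spots (open) of each section, joined by a line, with no error shown. Lyz2, Cbr2, Ccl8, Cd74, C4b, Comp, Cilp, Col3a1, Tagln and Nppa are higher in macrophage-rich spots of every section, Retnla by the least in TAC-4w (4.09 and 3.18 CPM), and the capillary gene Fabp4 is nearly level.

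Of the 10 called genes with the highest log2 ratios among those of at least 1000 UMIs and higher in all 4 sections, 9 were macrophage genes. Ccl8, a chemokine gene that attracts monocytes, led with 27.5, 10.4, 57.0 and 16.1 CPM in macrophage-rich spots against 9.48, 2.18, 16.8 and 4.31 CPM (log2 ratio 1.81 ± 0.11, adjusted p = 7.4e-17). Its level in other spots of TAC-4w was above that in macrophage-rich spots of TAC-2w, so the difference was one within sections. Retnla, a marker of alternatively activated macrophages, was at 37.0, 47.0, 4.09 and 22.0 CPM against 14.1, 13.4, 3.18 and 3.15 CPM (log2 ratio 1.80 ± 0.14). Its within-section log2 ratio was 0.40 in TAC-4w and 2.81 in TAC-6w, and in TAC-6w 55 of its 111 UMIs came from 1 spot. Pld4 (1.44 ± 0.10), Wfdc17 (1.38 ± 0.07), Ccl9 (1.34 ± 0.07) and Ccl6 (1.33 ± 0.06) completed them with Cbr2, Mgl2 and Folr2, and the remaining gene was Tagln of smooth muscle, described below.

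Of 11 macrophage growth factor and chemokine genes, 5 were higher and none lower. These were Ccl6, Ccl8, Ccl9, Ccl12 (log2 ratio 0.93) and Ccl24 (1.24 ± 0.23). Csf1 and Il34, which encode both ligands of the CSF1 receptor, did not pass the test, with log2 ratios of 0.27 and -0.04, and neither did Ccl2 (0.71), Ccl7 (0.56), Cx3cl1 (0.16) or Cxcl12 (-0.07). Of 4 genes for signals from macrophages to the stroma that passed the filter, Igf1, a growth factor gene, was higher with 20.5, 12.9, 11.8 and 21.6 CPM against 8.54, 7.25, 7.64 and 12.2 CPM (log2 ratio 0.87 ± 0.11, adjusted p = 1.2e-07). Vegfa, the endothelial growth factor gene, was lower (-0.24 ± 0.05, adjusted p = 9.4e-04), a call that was lost with total UMIs (-0.09, adjusted p = 0.25). Tgfb1 (0.14 ± 0.09) and Pdgfb (-0.03 ± 0.09) did not pass the test. Osm and Pdgfc had too few UMIs.

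The promoters of Ccl8, the gene with the highest ratio among called genes of at least 1000 UMIs, and of Mrc1 are shown because macrophage genes moved together and the core letters bound by PU.1, a transcription factor of the myeloid lineage, can be searched in them. The sequences are the 250 bases before the start of the gene, from RefSeq (GRCm38.p6), for Ccl8 at chr11:82114935-82115184 and for Mrc1 at chr2:14229164-14229413, both on the plus strand. Capitals mark GAGGAA or, on the other strand, TTCCTC.
Ccl8: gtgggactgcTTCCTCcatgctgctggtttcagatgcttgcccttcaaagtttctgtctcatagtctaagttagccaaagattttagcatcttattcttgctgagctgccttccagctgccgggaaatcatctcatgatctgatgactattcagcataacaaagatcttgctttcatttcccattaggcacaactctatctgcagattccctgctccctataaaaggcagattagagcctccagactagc
Mrc1: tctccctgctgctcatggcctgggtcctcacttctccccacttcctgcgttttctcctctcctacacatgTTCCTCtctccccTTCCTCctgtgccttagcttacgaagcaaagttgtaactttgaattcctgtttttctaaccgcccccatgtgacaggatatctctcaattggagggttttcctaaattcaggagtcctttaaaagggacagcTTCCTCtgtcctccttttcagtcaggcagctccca
The window of Ccl8 held 1 match and that of Mrc1 held 3. GAGGAA was present on either strand in 6 of the 11 other macrophage genes and 5 of the 9 resident macrophage genes that had a promoter in the table, beside 22.4% of the promoters of all genes tested. Over the other lists the share ran from 0 of 5 complement genes to 2 of 3 artery endothelium genes, with 3 of 6 for capillary endothelium. The letters were thus not particular to macrophage genes. A match is a description of the letters and not a binding site.

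Antigen presentation and complement genes were higher as well. All 6 MHC class II genes that passed the filter were higher (median log2 ratio 0.86). Cd74, the invariant chain of MHC class II, was at 284, 212, 613 and 431 CPM in macrophage-rich spots and at 124, 109, 342 and 256 CPM in other spots, so that the other spots of TAC-4w exceeded the macrophage-rich spots of sham and TAC-2w (log2 ratio 0.91 ± 0.04, adjusted p = 2.7e-20). The summed ratio of the list was 2.27 in sham, 1.89 in TAC-2w, 1.75 in TAC-4w and 1.66 in TAC-6w. All 9 complement genes outside the rule were higher (median 0.86). They include the classical and alternative pathway genes C4b (1.21 ± 0.08), Cfb (1.06), C2 (0.86) and C3 (0.78 ± 0.04) and the receptor genes C3ar1 (1.10 ± 0.12) and C5ar1 (1.07). C4b was at 62.4, 16.1, 146 and 40.9 CPM against 20.3, 7.79, 74.8 and 15.4 CPM.

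Of 12 lysosome genes, 8 were higher (median 0.33), with Ctsz (0.61 ± 0.06), Grn (0.55 ± 0.04) and Lgmn (0.52 ± 0.06) in front. Ctsd (-0.06) and Psap (-0.00) did not pass the test. Of 6 genes of iron handling, 3 were higher. These were Slc11a1, an iron transporter gene of phagosomes (1.22 ± 0.16), Hmox1, which degrades haem (0.87 ± 0.14), and Ftl1, the ferritin light chain gene (0.52 ± 0.03), whereas Fth1, the heavy chain gene, did not pass the test (-0.04 ± 0.03). Among genes linked to lipid-laden and scar macrophages, Lgals3 was at 15.2, 14.1, 36.8 and 18.3 CPM against 7.03, 3.89, 16.5 and 8.53 CPM (1.26 ± 0.11), and Gpnmb passed the test on 225 UMIs (0.92 ± 0.29, adjusted p = 0.022), a call that DESeq2 did not make. In macrophage-rich spots Gpnmb had 6, 3, 33 and 5 UMIs, so that most came from TAC-4w, and its ratio in TAC-2w was 0.920. Fabp5 did not pass the test (-0.01 ± 0.06). Spp1 had too few UMIs, and so had all 5 inflammatory genes of the list, Il1b, Tnf, Nlrp3, Il6 and Ptgs2. Of 10 interferon-induced genes, Ifitm3 (0.34 ± 0.04) and Bst2 (0.25 ± 0.07) were higher, the latter no longer called without sham (0.18) or TAC-2w (0.22). Of 5 immediate early genes, which answer to stress and handling, Junb was called (0.35 ± 0.11), but not without sham, TAC-2w or TAC-6w (0.32, 0.38 and 0.27).

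The single-cell libraries of the same study gave a readout that did not enter the choice of spots. Barcodes with transcripts of at least 3 of the 5 genes were set beside barcodes with none, in each of the 4 libraries. A gene was placed on the macrophage side where its CPM was at least 2-fold higher in the former in all 4 libraries, and on the other side where it was at most 0.5 times as high in all 4. Of the 872 genes higher in macrophage-rich spots, 239 (27.4%) were on the macrophage side and 211 (24.2%) on the other side, beside 4.37% and 14.4% of all genes tested. Macrophage-rich spots thus carried both transcripts that macrophages held and transcripts that other cardiac cells held. Lyz2, Cbr2, Ccl8, Retnla, Mrc1 and Cd74 were on the macrophage side, C3 on the other side (ratios of 0.142, 0.128, 0.312 and 0.170), and C4b and Igf1 on neither. The library of TAC-4w held 189 barcodes with at least 3 of the genes, against 999 to 2046 in the others.

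Smooth muscle genes were the group from another cell type with the largest median. All 7 were higher in macrophage-rich spots (median log2 ratio 1.22). Tagln, which encodes an actin-binding protein of smooth muscle, was at 88.2, 32.5, 45.3 and 24.0 CPM in macrophage-rich spots, and at 21.8, 14.9, 15.4 and 16.8 CPM in other spots (1.33 ± 0.12, adjusted p = 1.3e-11). The groups did not overlap, and the sham section stood highest. Myh11, the smooth muscle myosin heavy chain gene, was at 78.7, 21.9, 40.4 and 20.4 CPM against 22.0, 12.8, 14.8 and 13.4 CPM (1.22 ± 0.11). Acta2, smooth muscle actin, was at 246, 116, 109 and 95.02 CPM against 79.4, 80.9, 58.5 and 72.6 CPM (0.85 ± 0.09). Summed over the list, the ratio was 3.25 in sham, 1.56 in TAC-2w, 2.23 in TAC-4w and 1.37 in TAC-6w. Every member with the exception of Mylk had a log2 ratio of 0.85 or above.

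The rise was not seen without a small part of the spots. In total 122 of the 654 macrophage-rich spots (18.7%) were among the top 10% of their section for smooth muscle genes, as were 8.91% to 9.28% of other spots. Without those spots in either group, the median of the smooth muscle list was 0.07 and none of the 5 genes that still passed the filter was called, with Tagln at 0.11 (adjusted p = 0.77) and Acta2 at -0.03. Leaving spots out by the level of these genes lowers them by construction. The other macrophage list held 14 higher genes without those spots, with a median of 1.17. Myl9, a smooth muscle myosin light chain gene (1.14 ± 0.10), is the gene of this list whose promoter held a CArG box, the element bound by serum response factor. Its promoter, of 250 bases on the plus strand at chr2:156775214-156775463 (RefSeq, GRCm38.p6), has the box in capitals.
Myl9: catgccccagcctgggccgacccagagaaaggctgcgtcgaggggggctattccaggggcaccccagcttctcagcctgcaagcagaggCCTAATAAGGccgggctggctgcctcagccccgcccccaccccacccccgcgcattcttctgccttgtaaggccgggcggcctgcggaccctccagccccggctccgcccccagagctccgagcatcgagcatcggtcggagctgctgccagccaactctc
The box was found in 1 of the 5 smooth muscle genes with a promoter in the table, beside 1.23% of all genes tested. It was also found in 2 of 11 cardiomyocyte and 1 of 9 resident macrophage genes, and in 0 of 6 pericyte genes. The table had no promoter for Tagln.

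Fibroblast and matrix genes formed the other group from stroma. Of 10 fibroblast genes, 8 were higher (median 0.43), and all 11 fibrillar matrix genes were higher (median 0.46). Gsn, the gelsolin gene and the most abundant of them, was at 1790, 1365, 1787 and 1351 CPM in macrophage-rich spots against 1147, 976, 1196 and 1083 CPM in other spots, without overlap (0.50 ± 0.03, adjusted p = 1.7e-15). Dcn, the proteoglycan decorin, was at 664, 640, 898 and 585 CPM against 495, 497, 709 and 494 CPM (0.34 ± 0.03). Mfap4, a microfibril gene, had the largest log2 ratio of the list (0.90), and Tcf21 (0.23) and Ddr2 (0.36) did not pass the test. Col3a1, a fibrillar collagen gene, was at 150, 131, 46.0 and 316 CPM against 93.1, 96.7, 29.2 and 247 CPM (0.48 ± 0.05, adjusted p = 7.0e-11). The level of collagen thus differed more between sections than between the kinds of spot. Eln, elastin, reached 0.60 ± 0.08, and Sparc was the least changed matrix gene (0.17).

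Collagen-rich spots, the top 10% of each section by fibrillar collagen genes, held 142 of the 654 macrophage-rich spots (21.7%). Without them, 6 of the 10 fibroblast genes stayed higher with a median of 0.31, whereas 3 of the 11 fibrillar matrix genes did (median 0.12), which again lowers these genes by construction, and the count over all genes fell to 475 higher and 432 lower. In neither the smooth-muscle-rich nor the collagen-rich set were 446 macrophage-rich spots (68.2%).

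Genes of activated fibroblasts had some of the largest ratios, although 4 of the 7 tested passed. Comp, a cartilage matrix protein gene, was at 4.94, 2.25, 17.4 and 15.9 CPM in macrophage-rich spots and at 1.09, 0.743, 2.96 and 3.95 CPM in other spots on 483 UMIs (2.16 ± 0.18, adjusted p = 2.2e-12). Cilp, another matrix protein gene, was at 39.9, 15.3, 58.8 and 85.3 CPM against 6.56, 4.97, 20.3 and 51.6 CPM (1.296 ± 0.13, adjusted p = 2.1e-10). Its within-section log2 ratio was 2.60 in sham, 1.63 in TAC-2w, 1.54 in TAC-4w and 0.73 in TAC-6w, while its level in other spots was highest in TAC-6w. In sham, the 113 UMIs of Cilp in macrophage-rich spots came from 22 of 141 spots, and 1 spot held 28 of these UMIs. The difference between sections was not tested. Postn, periostin, was at 51.2, 23.9, 37.1 and 133 CPM against 24.2, 15.9, 34.9 and 97.8 CPM (0.50 ± 0.08), and Ltbp2 had a log2 ratio of 0.99 ± 0.20. Ltbp2 was uneven, with ratios of 5.68 in sham, 0.997 in TAC-2w, 1.24 in TAC-4w and 1.97 in TAC-6w. DESeq2 called neither Postn nor Ltbp2. Meox1 (0.24), Thbs4 (0.39) and Fap (0.16) did not pass the test, and Tnc and Cthrc1 had too few UMIs.

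**Figure D3:**
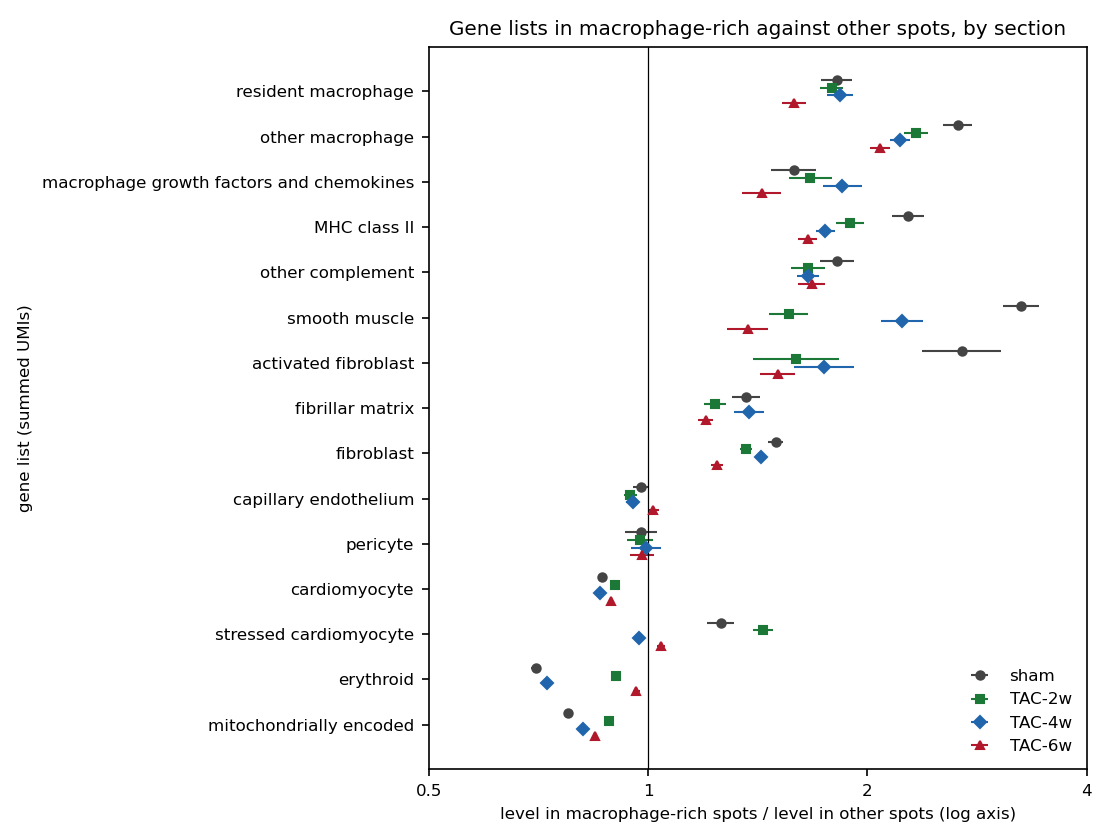
Ratio of the summed level of each gene list in macrophage-rich spots to that in other spots (TMM scale, log axis), for each section, with exact conditional binomial 95% intervals that cover counting error only. Macrophage, MHC class II, complement, smooth muscle and fibroblast lists lie above 1 in all 4 sections, capillary endothelium lies between 0.946 and 1.02, and the smooth muscle list spreads from 1.37 in TAC-6w to 3.25 in sham.

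The other cells of the vessel wall did not follow smooth muscle. None of 10 capillary endothelium genes was called (median -0.04), although with total UMIs 5 were higher (median 0.12). Fabp4, a fatty acid binding protein gene of capillaries, was at 989, 951, 1248 and 1607 CPM in macrophage-rich spots and at 1021, 1021, 1332 and 1564 CPM in other spots (-0.05 ± 0.03, adjusted p = 0.28). Of 7 pericyte genes, Abcc9 was lower (-0.17 ± 0.04), a call lost with total UMIs (-0.02, adjusted p = 0.84) and without TAC-6w (-0.16, adjusted p = 0.061), and Rgs5 (0.01 ± 0.03) and Pdgfrb (-0.01 ± 0.07) did not pass the test. A few genes of larger vessels were higher, 2 of the 5 tested in each of the artery, endocardium and vein, and lymphatic lists. These were Gja5, a connexin gene of arteries (0.94 ± 0.25 on 277 UMIs), Sema3g of arteries (0.35 ± 0.11), Vwf of larger vessels and endocardium (0.27 ± 0.07), Cytl1 (0.73 ± 0.14), and of the lymphatic list Mmrn1 (0.59 ± 0.19) and Pdpn (0.56 ± 0.19). Of these, DESeq2 called Cytl1 alone. The 3 other genes tested of each list did not pass the test. Among them were Emcn, with ratios of 0.92, 0.93, 0.98 and 0.96, and Prox1 of the lymphatic list, with 0.80, 1.00, 0.82 and 1.02. Prox1 was on neither side in the single-cell libraries. Pdpn was lost without TAC-4w (0.37) or TAC-6w (0.40), Mmrn1 without sham (0.39), TAC-4w (0.60) or TAC-6w (0.66), Sema3g without sham (0.28), TAC-2w (0.34) or TAC-6w (0.30), and Vwf without TAC-6w (0.26).

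Cardiomyocyte genes were lower on the TMM scale, and the size of this depended on the scaling. All 12 were lower (median -0.20), whereas with total UMIs the median was -0.04 and 2 were called. Ttn, titin, was at 1351, 1743, 1323 and 1197 CPM in macrophage-rich spots against 1646, 2000, 1592 and 1362 CPM in other spots (-0.23 ± 0.03). Ryr2, the calcium release channel gene, had a log2 ratio of -0.28 ± 0.03 and Myl2, ventricular myosin light chain, -0.20 ± 0.02. All 13 mitochondrially encoded genes were lower on both scales, with medians of -0.28 and -0.12. All 5 erythroid genes, of haemoglobin and haem synthesis, were lower (median -0.29), 3 of them with total UMIs (median -0.13) and 2 with DESeq2. Hbb-bs was at 3615, 6654, 1525 and 3287 CPM against 5046, 7373, 2116 and 3422 CPM (-0.29 ± 0.04). Of these lists, the mitochondrially encoded one supplies much of the total by which the rule divides, at 350343 to 600691 CPM. The cardiomyocyte list was at 45133 to 73180 CPM and the erythroid list at 2926 to 15338 CPM. The part of this division in the values of the lists was not tested. With spots ranked by Cd68 and Csf1r alone, the erythroid median was 0.02.

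Nppa, which encodes atrial natriuretic peptide and is raised in stressed ventricles, was higher in macrophage-rich spots. It was at 237, 336, 2409 and 701 CPM in macrophage-rich spots against 104, 127.1, 1846 and 516 CPM in other spots (0.77 ± 0.08, adjusted p = 6.5e-10). The ratio was larger in sham and TAC-2w (log2 1.18 and 1.40) than in TAC-4w and TAC-6w (0.38 and 0.44), where the level was higher in both kinds of spot, and this difference has no test. Ankrd1, a stress-induced sarcomere gene, was also higher (0.17 ± 0.04, and 0.10 with adjusted p = 0.069 without TAC-2w). Nppb (0.03 ± 0.05), Myh7 (0.08 ± 0.06), Acta1 (-0.01 ± 0.03) and Xirp2 (-0.03 ± 0.04) did not pass the test. Myl4, an atrial gene, was at 2.47, 1.64, 0.511 and 1.19 CPM in macrophage-rich spots against 1.25, 2.15, 0.929 and 1.38 CPM. This rested on 7, 8, 2 and 6 UMIs in macrophage-rich spots. Myl4 did not pass the test either (-0.09 ± 0.34), and Myl7, Sln and Bmp10 had too few UMIs to be tested.

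Markers of other leukocytes were scarce. Of the monocyte list 4 of 10 genes passed the filter, of the neutrophil list 3 of 7, of the T and NK cell list 3 of 8, of the B and plasma cell list 2 of 7 and of the dendritic cell list 1 of 7. No gene of the neutrophil, T and NK cell or dendritic cell lists was called, with median log2 ratios of -0.21, 0.37 and -0.27. Ighm, the IgM heavy chain gene, was at 14.1, 10.8, 10.7 and 12.7 CPM against 6.51, 5.69, 6.07 and 8.49 CPM (0.83 ± 0.13, adjusted p = 5.8e-06). The light chain gene Igkc did not pass the test (-0.25 ± 0.16). In the single-cell libraries Ighm was on neither side, and Igkc was on the other side. Ace of the monocyte list was higher (0.60 ± 0.06) but was on the other side in the single-cell libraries (ratios of 0.12 to 0.22), and Ccr2 (0.52 ± 0.25), Ly6c2 (0.50 ± 0.23) and Cx3cr1 (0.75 ± 0.27) did not pass the test. Cma1, a mast cell protease gene, was called (1.54 ± 0.33 on 225 UMIs), with 9.92 against 1.83 CPM in TAC-6w but 1.06 against 0.885 CPM in sham and 0.818 against 1.43 CPM in TAC-2w. In TAC-4w it was at 1.28 against 0.286 CPM, on 5 UMIs in macrophage-rich spots (ratio 4.47, 95% interval 1.152 to 15.5). The other mast cell gene tested, Mcpt4, did not pass the test. Its ratios were 0.295, 0.125, 0.716 and 3.81, on 1, 1, 1 and 36 UMIs in macrophage-rich spots. Cpa3, Kit and Tpsb2 had too few UMIs. Cdh19 of Schwann cells was higher (0.84 ± 0.22), but not without TAC-2w (0.75, adjusted p = 0.066). Of the 4 epicardial genes tested, whose median log2 ratio was 0.33, Wt1 and Tbx18 did not pass the test. Upk3b and Msln were called, with log2 ratios from 0.68 to 0.86, but their sections went in opposite directions. Upk3b had no UMI in the macrophage-rich spots of sham and was at 9.20 against 4.43 CPM in TAC-4w, and neither gene was called without TAC-6w (0.44 and 0.48) or without TAC-4w (0.73 and 0.29). DESeq2 called none of Cma1, Cdh19, Upk3b and Msln. Of 5 cell cycle genes none was called, and Mki67 was at 0.51 ± 0.21. The valve and platelet lists had 1 gene tested each, which was not called, and no gene of the adipocyte list was tested.

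Some genes stood out in 1 section only through a few spots. In sham, the gene with the highest ratio was Ccl1, a chemokine gene, at 25.4 against 2.34 CPM, but 68 of its 72 UMIs came from 1 spot. Cxcl9, another chemokine gene, was at 25.0 against 5.62 CPM there, with 67 of its 71 UMIs from 1 spot. In TAC-6w, Cma1 was present in 9 of the 189 macrophage-rich spots and Retnla in 14. By contrast, Ccl8 was present in 60 of the 119 macrophage-rich spots of TAC-4w and in 38 of the 205 of TAC-2w, with at most 20 and 4 UMIs in a spot. Comp was present in 19 of 119 spots of TAC-4w and 31 of 189 of TAC-6w. It had 68 and 80 UMIs there, with at most 16 and 18 in a spot. At such counts many spots hold no UMI of a gene, so these shares do not show how widely it was raised.

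The 10 genes with the lowest log2 ratios among those of at least 1000 UMIs included Gm42067 (-0.72 ± 0.18), Zfp770 (-0.62 ± 0.16), Gm14327, Epm2a, Slc36a2, Ogfod2, Strn3, Usp50 and Kcnd2 (-0.45 ± 0.13). Being lower in every section was a condition of the choice, which 15% of all genes tested met without regard to a test. The genes named were weakly expressed, with 1044 to 1671 UMIs each, and belonged to none of the lists. DESeq2 called 1 of them, Gm42067, and with total UMIs that gene and Zfp770 stayed called. Gm14327 lost its call without TAC-4w or TAC-6w, Epm2a and Ogfod2 without TAC-6w, Slc36a2 without TAC-2w, Strn3 without sham or TAC-2w, and Kcnd2 without TAC-6w, without TAC-4w or without TAC-2w.

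The spots around the macrophage-rich spots were compared next, leaving the macrophage-rich spots out, to ask how far the pattern reached. Spots that touched at least 1 macrophage-rich spot (499 in sham, 800 in TAC-2w, 399 in TAC-4w, 639 in TAC-6w) were compared with spots that touched none (766, 1043, 676 and 1066). Of 11140 genes tested, 78 (0.7%) were higher and 47 (0.422%) lower, together 1.12%, and with total UMIs 196 were higher and 7 lower. Without TAC-4w 29 were higher and 13 lower, and without TAC-6w 39 and 23. DESeq2 called 12 and 18.

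Among called genes of at least 1000 UMIs and 1 direction in all 4 sections, the highest log2 ratios in touching spots were those of Cilp, Tagln and Myh11. These are genes of matrix and smooth muscle. Cilp was at 9.15, 5.47, 22.9 and 65.2 CPM in touching spots and at 3.99, 4.07, 16.6 and 38.9 CPM in farther spots (log2 ratio of touching to farther spots 0.68 ± 0.07, adjusted p = 9.6e-08). Tagln (0.52 ± 0.09) and Myh11 (0.51 ± 0.09) were higher by the least in TAC-2w (log2 0.08 and 0.06), and were lost without TAC-4w or without TAC-6w. Of 7 smooth muscle genes 5 were higher, of 11 fibrillar matrix genes 4, of 10 fibroblast genes 3 and of 15 other macrophage genes 3. None of 10 capillary endothelium, 7 pericyte or 6 MHC class II genes was called, which is near the share of 1.12% over all genes tested. Of the genes higher in touching spots, 41 (52.6%) were on the other side in the single-cell libraries and 14 were on the macrophage side, beside 14.3% and 4.31% of the genes tested.

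The genes of the rule had put both of these groups under the threshold, so their values are a description. The log2 ratios of touching to farther spots were 0.15 ± 0.03 (C1qa), 0.15 ± 0.03 (C1qb), 0.19 ± 0.04 (C1qc), 0.36 ± 0.10 (Cd68) and 0.02 ± 0.06 (Csf1r). In TAC-2w, those of C1qa and C1qb were -0.04 and -0.00. Nppa was higher in touching spots (0.44 ± 0.07), but not in TAC-4w (-0.04). Cbr2 (0.35 ± 0.07) and Serpina3n, a protease inhibitor gene (0.36 ± 0.07), were higher in all 4 sections, although Cbr2 was lost without TAC-4w (0.26, adjusted p = 0.18) and Serpina3n was at 0.59 without it. The haemoglobin genes were lower, with Hba-a1 at -0.23 ± 0.04, or -0.13 without sham and not called without TAC-4w (adjusted p = 0.06), and so was mt-Atp8 (-0.19 ± 0.02).

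With distance, the levels of the macrophage and fibroblast lists fell mostly at the first step. In CPM of total UMIs, the other macrophage list was at 871, 318, 268 and 237 CPM in sham at 0, 1, 2 and 3 or more steps from the nearest macrophage-rich spot, and at 1404, 623, 548 and 494 CPM in TAC-4w. In TAC-2w it went from 669 to 276, 261 and 248 CPM, and in TAC-6w from 1158 to 547, 492 and 470 CPM. The fibroblast list in sham was at 2940, 1856, 1686 and 1411 CPM, and in TAC-4w at 3576, 2309, 2171 and 2167 CPM. The smooth muscle list in TAC-6w fell more gradually, from 240 to 201, 139 and 130 CPM. In the other sections it fell most at the first step, from 623 to 186 CPM in sham, 234 to 144 CPM in TAC-2w and 331 to 167 CPM in TAC-4w. Cardiomyocyte genes stayed between 58809 and 61488 CPM at every distance in sham.

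**Figure D4:**
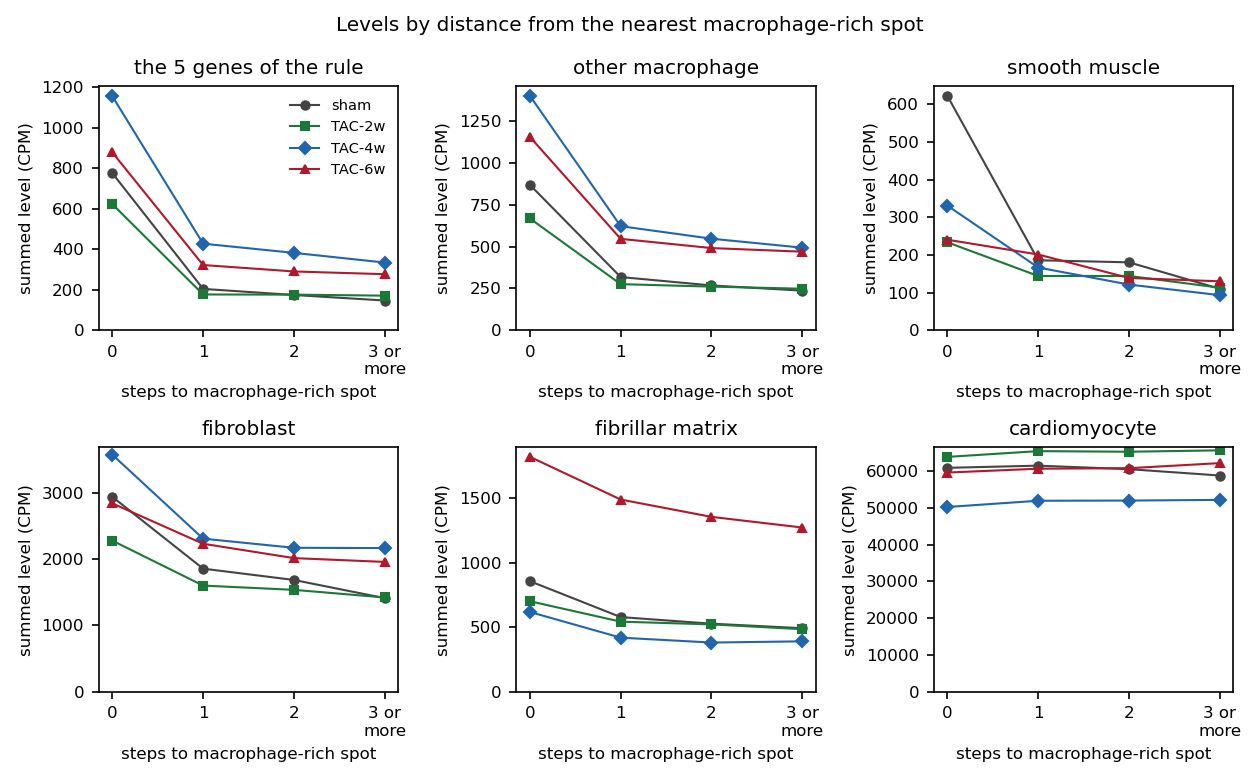
Summed level (CPM of total UMIs) of the 5 genes of the rule and of 5 gene lists in macrophage-rich spots (0 steps) and in spots 1, 2 and 3 or more steps from the nearest one, for each section, with no error shown. The 5 genes drop by construction between 0 and 1 steps, the other macrophage, fibroblast and fibrillar matrix lists drop most between 0 and 1 steps in every section, and the cardiomyocyte list is nearly level. Lists that go with the 5 genes drop there through the same selection, so these drops do not measure a reach.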

How the data were processed

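The data were 4 Visium sections and 4 single-cell libraries of mouse hearts, 1 of each per condition. The deposited count matrices hold UMI counts per gene and barcode, made by the authors from reads aligned to mm10, with Space Ranger 1.3.1 and Cell Ranger 7.0.0 named in the submitters' processing notes; they were not normalised. The members, gene lists and tests were chosen with earlier results of these data known.

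In each section, UMIs were summed over macrophage-rich and over other spots, and genes with at least 200 UMIs in all, without the 5 genes of the rule, were tested with edgeR 4.0.16 in R 4.3.3 (quasi-likelihood, TMM scaling, section as a block, Benjamini-Hochberg adjusted p under 0.05, two-sided). The block pairs the 2 sums of a section by construction. The p-values and standard errors rest on the spread of the fit, which shares information over genes, and not on the section ratios of a gene alone. For Tagln these log2 ratios were 2.02, 1.13, 1.56 and 0.52 over the 4 sections, beside a standard error of 0.12. The sections are of different conditions, and the intervals cover counting error only. Section totals were 25014306 to 48707741 UMIs. On simulated counts of the same comparison (11356 genes), 200 of 200 genes changed 2-fold were recovered with 5 false calls. The changed genes were drawn from those with at least 1000 UMIs and had the same fold in every section. The recovery thus does not cover genes of fewer UMIs or genes whose ratio varied between sections. In the single-cell libraries, barcodes with 200 to 6000 genes, 500 to 30000 UMIs and at most 15% mitochondrial UMIs were kept; no doublet caller was run, so doublets were not removed, and 120 of 32353 barcodes occurred in 2 or more libraries.

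Named were the 10 called genes with the highest and the 10 with the lowest log2 ratio that had at least 1000 UMIs and 1 direction in all 4 sections (5 and 5 for neighbouring spots), up to 4 genes of each list, any gene of a list of 6 or fewer, and per section the 3 genes with the highest ratio on at least 50 UMIs. A few genes that the rule names are not reported here. Genes named outside this rule, and the promoters shown, were chosen after their values were seen. The alternatives changed the scaling, test, block, gene filter, share of spots taken, UMI minimum, depth and ranking genes, or left out tissue-edge spots or 1 section. Leaving out smooth-muscle-rich or collagen-rich spots, and edge spots among neighbours, was added after seeing the data. Further software was DESeq2 1.42.0, Python 3.11.15 with scipy 1.17.1, and pandas 2.3.3.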

Additional observations from a re-analysis of the deposited data

Results flagged for a closer look

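With 4 sections, a value was taken as far from the others where its gap to the nearest exceeded 0.829 of the range, Dixon's critical value, which chance passes in about 1 of 20 groups; 20 genes and 12 lists were examined. Slc36a2, an amino acid transporter gene among the lowest log2 ratios, was at -0.53 in TAC-2w against -0.46, -0.45 and -0.46 in sham, TAC-4w and TAC-6w, with a gap of 0.833 of the range. The 4 values lie within 0.1 of each other, so what stood apart was a small difference on few UMIs.

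The summed ratio of the stressed cardiomyocyte list went in opposite directions in different sections. It was 0.973 in TAC-4w, where macrophage-rich spots were lower, and 1.26 in sham, where they were higher. In TAC-2w it was 1.44 and in TAC-6w 1.04. Myh7, which supplies much of the list's level in TAC-4w, was at 6486 CPM in macrophage-rich and 7396 CPM in other spots there, but at 72.3 and 44.4 CPM in sham. Nppa of the same list was higher in macrophage-rich spots of both sections. It was at 2409 and 1846 CPM in TAC-4w and at 237 and 104 CPM in sham, a wider gap in sham than that of Myh7. The difference between sections was not tested, since each condition had 1 section.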

How the results depend on the processing

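The median log2 ratio of each of the 12 lists examined kept its sign under the alternatives run, with the exceptions of the erythroid list by Cd68 and Csf1r, the capillary list with total UMIs, and the pericyte list, whose median was near 0 and changed sign under 5 alternatives. Higher genes in macrophage-rich spots, 872 in the test as reported, were 2177 with total UMIs, 489 with DESeq2, 163 with spots thinned to 5000 UMIs, 559 with spots ranked by Cd68 and Csf1r, and 475 without collagen-rich spots. Lower genes, 756 as reported, were 36, 410, 139, 482 and 432 in the same order, and 1268 with no filter on low counts. The thinned run also ranked the spots anew on the thinned counts and tested genes with at least 50 UMIs, so it did not change depth alone. Leaving out 1 section gave 648 to 705 higher and 531 to 710 lower genes. For neighbouring spots, 78 higher and 47 lower genes became 196 and 7 with total UMIs, and 12 and 18 with DESeq2. They were 49 higher within 2 steps, 143 lower with no filter, and 29 to 82 higher and 13 to 64 lower without 1 section. Without the section block that pairs the sums, edgeR called 18 higher and 0 lower genes in macrophage-rich spots (646 at an unadjusted p under 0.05) and 0 higher and 0 lower in neighbouring spots (33 at an unadjusted p under 0.05), and 100 of 106 named results lost their call. By construction, that fit counts differences between sections as error.

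Median log2 ratios moved as follows. With total UMIs they were 1.33 (other macrophage), 1.46 (resident macrophage), 1.01 (complement), 0.59 (fibroblast), 0.62 (fibrillar matrix), 0.12 (capillary), 0.14 (pericyte), -0.041 (cardiomyocyte) and -0.12 (mitochondrial). With thinned spots they were 0.87 (other macrophage), 0.91 (resident), 0.62 (MHC class II), 0.51 (complement), 0.25 (fibroblast) and -0.15 (cardiomyocyte). Ranking by Cd68 and Csf1r gave 0.90 (other macrophage), 0.96 (resident), 0.57 (complement), -0.20 (mitochondrial) and 0.022 (erythroid), with Alas2 at 0.079, Hba-a1 at 0.022, Hba-a2 and Hbb-bs at 0.018 and Hbb-bt at 0.024. The top 5% gave 1.45 (resident), 1.11 (complement), 0.64 (fibrillar matrix), -0.27 (cardiomyocyte) and -0.38 (mitochondrial), and the top 20% gave 0.63 (complement), 0.31 (fibrillar matrix) and -0.15 (cardiomyocyte). Ranking within 10 bins of depth gave 1.01 (complement), and no filter -0.093 (capillary) and -0.26 (cardiomyocyte). Without smooth-muscle-rich spots the medians were 0.069 (smooth muscle), 0.31 (fibroblast) and 0.29 (fibrillar matrix), with Acta2 at -0.026, and without collagen-rich spots 0.51 (smooth muscle), 0.31 (fibroblast), 0.12 (fibrillar matrix), 0.71 (complement) and -0.14 (cardiomyocyte). In thinned spots Junb was at -0.14 and Pdpn at -0.13. The share of neighbouring spots, 16.1%, was 11.04% with the top 5%, 26.7% with the top 20%, 14.4% in depth bins, 14.1% in thinned spots and 12.4% by Cd68 and Csf1r. The causes were not tested. Genes under 200 UMIs, most leukocyte markers among them, were not tested in the reported comparison.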

Other observations

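Igkc, an immunoglobulin light chain gene, was higher in spots touching a macrophage-rich spot, at 11.8, 8.92, 6.12 and 9.46 CPM in sham, TAC-2w, TAC-4w and, last, TAC-6w against 5.76, 3.08, 3.06 and 4.82 CPM in farther spots (log2 ratio 1.13 ± 0.11, edgeR adjusted p = 9.6e-08). In macrophage-rich spots themselves it was at 8.11, 5.31, 3.58 and 5.36 CPM against 8.80, 6.00, 4.57 and 6.95 CPM and did not pass the test. The heavy chain gene Ighm had the reverse pattern, with a log2 ratio of 0.83 in macrophage-rich spots and 0.02 in touching spots. In the single-cell libraries Ighm was on neither side, with ratios of 3.73, 3.98, 0.19 and 0.93. Igkc was on the other side there, with ratios of 0.16, 0.08, 0.06 and 0.08. Another light chain gene, Iglc1, was at 3.10 CPM in touching and 25.8 CPM in farther spots of TAC-4w and at or under 0.14 CPM elsewhere, so its value rests on that section. These genes were picked after their values were seen.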
